A study of Mus musculus with 24 samples.

Results

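Polysome loading was compared between rpS6P-/- knockin mice and wild-type littermates in the dorsal striatum (DS), as the interaction of genotype with fraction over 12 of the 24 libraries of the series. In rpS6P-/- mice (rpS6 knockin, KI in the labels) every phosphorylatable serine of ribosomal protein S6 is replaced by alanine in all cells. The wild-type littermates (wt) shared their mixed C57Bl/6/Sv129/ICR background. Males and females were used, animals were pooled within a replicate, and the age of the mice sequenced was not given in the sources used here. No drug or stimulus is named in the labels of these samples. The remaining 12 libraries came from the nucleus accumbens (Acb) of the same genotypes and serve only to show where the DS differed.

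Each of the 6 DS replicates (3 wt and 3 KI) gave a pair of libraries, and is called a lysate here. The paper's methods describe a replicate as pooled heavy fractions of separate samples, so a Heavy library may combine several lysates. "Total" is poly(A) RNA of the whole lysate. "Heavy" is poly(A) RNA from the fractions of a 10 to 50% sucrose gradient that hold mRNAs carrying more than 4 ribosomes, per the labels. The quantity described is polysome loading, the log2 ratio of the depth-scaled count (CPM) in Heavy to CPM in Total of the same lysate. A loading difference is the loading in KI minus that in wt, estimated by edgeR with the pair kept together. A positive value therefore means relatively more of an mRNA in KI heavy polysomes, given its level in the lysate. The standard error (SE) and p of a gene rest on a trend over genes, not on its own spread between lysates. In bulk lysates such as these, more cells of a type and more RNA per cell cannot be told apart.

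Ribosomal protein S6 is a subunit of the small ribosomal subunit. It is phosphorylated by the S6 kinases downstream of mTORC1 and by RSK and other kinases, and its phosphorylation rises with neuronal activity in the striatum. The number of ribosomes an mRNA carries depends on how often initiation occurs and on how long its open reading frame is, because a short frame has room for few ribosomes at a time. mRNAs of the shortest proteins, such as thymosins, metallothioneins and small respiratory chain subunits, therefore sit near the lower border of a heavy polysomal fraction.

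Reads assigned to genes numbered 11109431 to 27128209 per Heavy library and 13762168 to 20259509 per Total library. The noncoding RNA *Bc1* took 15.2 to 24.8% of reads in Total and 1.76 to 3.85% in Heavy. All 10 medium spiny neuron markers were detected, at a summed 4654 to 5147 CPM in wt and 4887 to 5108 in KI lysates. Markers of 3 other cell types were higher in KI lysates without overlap. The 8 astrocyte markers summed to 1274 to 1344 CPM in wt and 1411 to 1685 in KI, the 9 microglia markers to 127.1 to 153.8 and 155.3 to 172.2, and the 9 choroid plexus and ependyma markers to 109.6 to 122.4 and 130.5 to 144.2. In Heavy all 3 sums overlapped between genotypes. *Tmem212* was at 0 in the wt lysates and *Kcnj13* at 0 in the wt heavy fractions. The part of these cell types in the loading differences was not tested. Oligodendrocyte, interneuron, endothelial and cortical neuron sums overlapped in the lysates. Median loading differences of the marker lists were 0.06 for medium spiny neurons, 0.05 for interneurons, -0.20 for cortical excitatory neurons, 0.08 for oligodendrocytes, -0.08 for astrocytes, 0.14 for microglia, -0.65 for endothelial cells and 1.12 for choroid plexus and ependyma, the last 2 on few reads. The median loading per lysate did not overlap for medium spiny neurons (0.11, -0.22 and 0.05 in wt, 0.11, 0.47 and 0.42 in KI, where only the next decimal separates the closest pair), microglia (KI lower) or choroid plexus and ependyma (KI higher).

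Loading differed between genotypes for 6 of 16544 genes tested (0.0363%) at an adjusted p under 0.05, all 6 higher in KI. These were *Pcp4*, *Mt1*, *Tmsb4x*, *Cox8a*, *Ramp1* and *Tmsb10*. All but *Ramp1* have coding sequences shorter than 300 bases. No gene was called lower. At an unadjusted p under 0.05, 441 genes were higher (2.67%) and 282 lower (1.7%), and the median difference over all genes was 0.00. The calls depended on the pairing of lysates and on the tool. Without the pairing of lysates, with limma-voom or with DESeq2's Wald test, 0 genes were called, at lowest adjusted p of 0.514, 0.275 and 0.518, while 811, 746 and 777 genes had an unadjusted p under 0.05.

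The coding sequences of 4 called genes are printed here, since their shortness is what they share. They are GENCODE M21 transcripts on GRCm38, read 5′ to 3′ on the coding strand, with the start and stop codons in capitals.
Tmsb4x: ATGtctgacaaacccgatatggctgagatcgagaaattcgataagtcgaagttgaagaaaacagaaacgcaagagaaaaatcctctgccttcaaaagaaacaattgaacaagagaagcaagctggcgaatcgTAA
Tmsb10: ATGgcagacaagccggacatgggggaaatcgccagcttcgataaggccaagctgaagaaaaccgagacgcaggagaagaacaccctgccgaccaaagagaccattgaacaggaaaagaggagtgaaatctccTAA
Pcp4: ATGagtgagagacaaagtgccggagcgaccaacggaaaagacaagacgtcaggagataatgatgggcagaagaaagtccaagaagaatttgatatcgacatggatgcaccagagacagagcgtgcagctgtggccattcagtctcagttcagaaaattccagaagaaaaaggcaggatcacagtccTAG
Cox8a: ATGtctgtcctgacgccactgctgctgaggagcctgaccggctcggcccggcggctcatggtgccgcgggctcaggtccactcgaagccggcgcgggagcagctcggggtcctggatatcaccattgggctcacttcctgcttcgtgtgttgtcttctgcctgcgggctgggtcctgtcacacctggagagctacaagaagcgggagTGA
The coding lengths, without the stop codon, are 132 bases for *Tmsb4x* and *Tmsb10*, 186 for *Pcp4* and 207 for *Cox8a*. The thymosin frames are equal in 95 of 135 aligned bases (70.4%, stop codon included).

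*Pcp4* (chr16:96467606-96525793) encodes PEP-19, a small calmodulin-binding protein abundant in striatal neurons. Its loading was -0.22, -0.60 and 0.28 in the 3 wt lysates and 0.47, 0.56 and 1.22 in the 3 KI lysates. The genotypes did not overlap, and the highest KI lysate stood well above the other two. Loading rose by 0.93 on the log2 scale (SE 0.19, edgeR adjusted p = 0.00572). Total held 1198 ± 107 CPM in wt and 1142 ± 44.4 in KI (mean ± SD, n = 3). Heavy held 1092 ± 345 CPM in wt and 1962 ± 527 in KI. The lysate levels lay within their spread of each other, and the separation was in the heavy fraction.

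*Mt1* (chr8:94178883-94180327), a metallothionein that binds zinc and copper, showed loading of -0.61, -1.03 and 0.23 in wt and 0.66, 0.32 and 0.91 in KI. The groups were separate, though KI lysate 2 lay only just above wt lysate 3. Loading rose by 1.10 (SE 0.22, edgeR adjusted p = 0.00572). Its Heavy level was 98.9 ± 32.9 CPM in wt and 182.7 ± 34.4 in KI, against 132.8 ± 16.8 and 116.5 ± 1.6 CPM in Total.

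*Tmsb4x* (chrX:167207093-167213479) and *Tmsb10* (chr6:72957347-72958748) encode thymosins, which hold actin monomers. *Tmsb4x* loading was -0.73, -1.20 and -0.08 in wt and -0.05, -0.17 and 0.77 in KI, so that wt lysate 3 lay above KI lysate 2. The fitted rise was 0.85 (SE 0.19, edgeR adjusted p = 0.0424). *Tmsb10* loading was -1.07, -1.62 and -1.08 in wt and -0.69, -0.74 and 0.40 in KI. It rose by 0.91 (SE 0.21, edgeR adjusted p = 0.0424), with no overlap and with KI lysate 3 far above the other KI lysates. *Tmsb4x* was also called in the heavy fractions taken alone, where it rose by 0.97 (edgeR adjusted p = 0.0382). *Tmsb10* was 0.92 there (edgeR adjusted p = 0.069). In the lysates the thymosins differed by 0.10 and -0.05. Both have processed copies in the genome, and reads shared with a copy may have been lost or split in counting.

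*Cox8a* (chr19:7215158-7217616), a subunit of cytochrome c oxidase, differed in another way. Its loading was -0.64, -1.76 and -0.55 in wt and -0.26, -0.01 and 0.30 in KI, with no overlap, and rose by 0.99 (SE 0.23, edgeR adjusted p = 0.0424). Total held 120.5, 217.7 and 155.3 CPM in wt but 98.3, 93.4 and 110.7 CPM in KI. The lysate level fell by 0.73 on the log2 scale (edgeR adjusted p = 0.00596), while the heavy fraction differed by 0.34 (edgeR adjusted p = 0.818). *Ramp1* (chr1:91179822-91225196), whose product forms the calcitonin gene-related peptide receptor with *Calcrl*, had the longest frame of the 6, at 444 bases. Its loading was -0.26, -1.10 and 0.06 in wt and 0.48, 1.17 and 0.72 in KI, a rise of 1.22 (SE 0.28, edgeR adjusted p = 0.0424). Neither its heavy fraction (0.69) nor its lysate level (-0.50) was called alone. The heavy fractions alone gave 7 called genes of 15896 (0.044%), of which *Cwc22*, *Mt2*, *Ndufa3*, *Tmsb4x* and *Usmg5* were higher and *Acer2* and *Myl4* lower. The lysates alone gave 19 of 15601 (0.122%). Both share their libraries with the interaction.

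**Figure D1:**
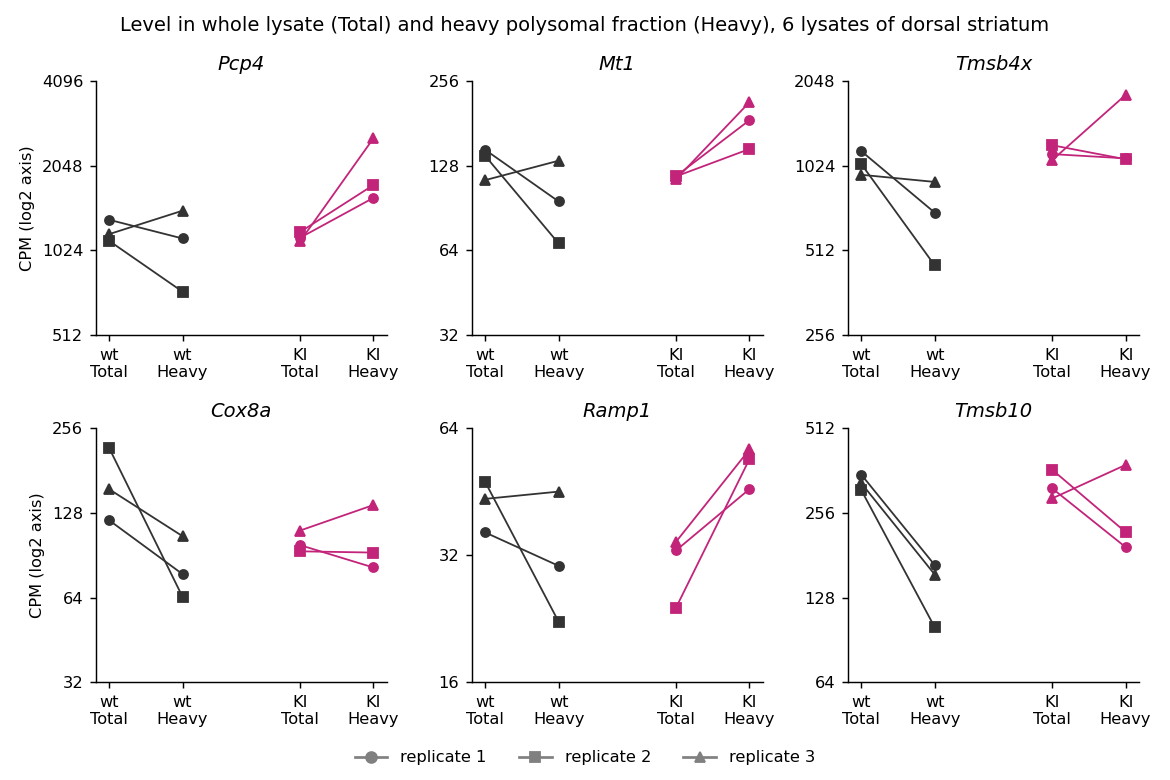
Level (CPM, log2 axis) of the 6 called genes in Total and Heavy, with a line for each of the 3 wt (black) and 3 KI (magenta) lysates and a marker shape for each replicate. Total levels of Pcp4 lie between 1102 and 1316 CPM in all 6 lysates, while its Heavy levels run from 730.5 to 1417 in wt and from 1574 to 2562 in KI; for Cox8a the wt and KI Total levels separate.

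In wt lysate 2 the loading was the lowest of the 6 lysates for each of these genes, and in KI lysate 3 it was the highest for *Pcp4*, *Mt1*, *Tmsb4x*, *Cox8a* and *Tmsb10*. Without KI lysate 3, 0 genes were called, with 674 at an unadjusted p under 0.05. Without wt lysate 2, 1 gene was called, and without wt lysate 3, 56 genes, 52 of them higher in KI. Each of the 6 genes stayed higher in KI under all 18 alternatives run, the lowest estimates being 0.34 for *Tmsb4x*, 0.40 for *Tmsb10* and 0.55 for *Pcp4*, but was called in only 5 to 7 of them.

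**Figure D2:**
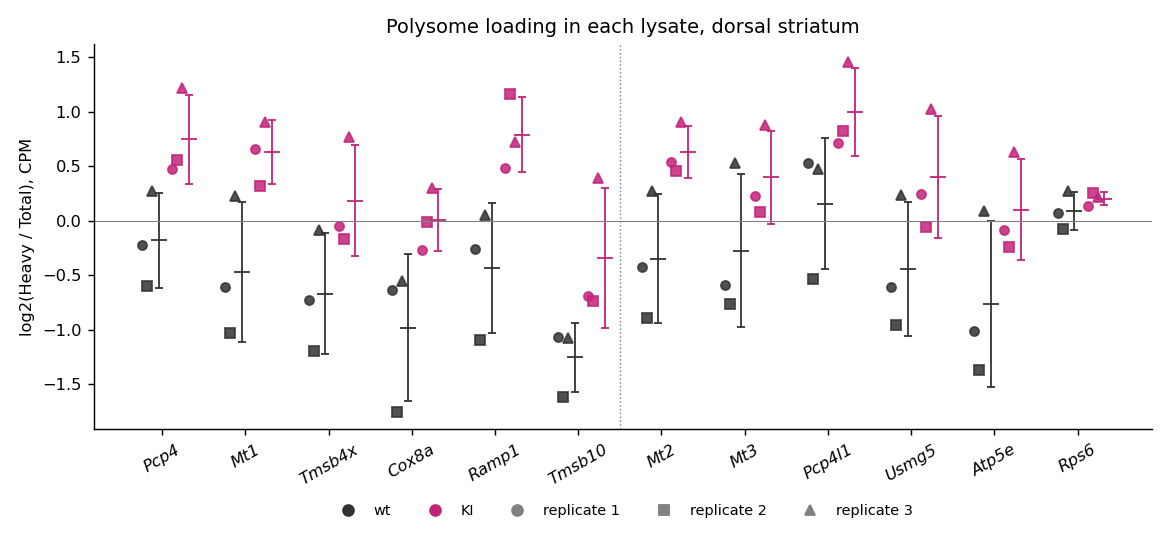
Polysome loading (log2 of Heavy over Total CPM) in each lysate, wt in black and KI in magenta, with mean ± SD (n = 3) beside the points; the 6 called genes stand left of the dotted line. For Tmsb4x, Usmg5 and Atp5e the genotypes overlap, for Pcp4 and Mt2 they do not, and Rps6 lies between -0.08 and 0.27 in all 6 lysates.

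*Rps6* (chr4:86854099-86857367), the gene that carries the substitutions, overlapped between genotypes. Its loading was 0.07, -0.08 and 0.27 in wt and 0.13, 0.25 and 0.22 in KI. The difference was 0.11 (SE 0.20, edgeR adjusted p = 1), and the Total level was 309.2 ± 40.7 CPM in wt and 308 ± 12.5 in KI (n = 3). Counts per gene do not show the substitutions themselves, so this is no check of the genotype labels. The cytosolic ribosomal proteins, whose mRNAs begin with a terminal oligopyrimidine (TOP) tract and are the classical targets of mTORC1, had medians near that of all genes. The median difference was 0.00 over 50 large subunit genes and -0.05 over 33 small subunit genes, against 0.00 over all genes. At an unadjusted p under 0.05, *Rpl39* (0.80) was higher and *Rpl18* (-0.44) lower in the large subunit (2% each). In the small subunit *Rps26* (0.65), *Rps21* (0.54) and *Rps27l* (0.98) were higher (9.09%) and 0 lower. Of all genes, 2.67% were higher and 1.7% lower. Each of these ribosomal protein genes overlapped between genotypes in loading. None passed the adjusted threshold. *Rpl39*, *Rps21* and *Rps27l* have coding sequences of 153, 249 and 252 bases. Among the 21 other TOP mRNAs, which encode elongation factors and the like, the median was -0.05, 0 of 21 reached an unadjusted p under 0.05 in edgeR and 0 an adjusted one. Many ribosomal protein genes have processed copies, and their single values are uncertain for that reason.

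Differences were higher among the shortest frames. A coding length and a mean of 50 or more reads per library were available for 11500 genes, 232 of which have coding sequences of at most 300 bases. Of these 232, 94 were higher at an unadjusted p under 0.05 (40.5%), against 3.29% of the 11500, and 0 were lower, against 2.21%. Of the 232, 5 passed the adjusted threshold. Their median difference was 0.45 (quartiles 0.20 and 0.67), and 204 of the 232 estimates were above 0. Between 301 and 450 bases the median was 0.10 over 522 genes, and 62 were higher and 26 lower at an unadjusted p under 0.05. From 451 bases upward the medians lay between -0.06 and 0.00.

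Lysates of 1 genotype also differed for these genes. The median loading of the 232 genes was 0.11, -0.57 and 0.56 in wt and 0.45, 0.38 and 0.80 in KI. Thus wt lysate 3 lay above KI lysates 1 and 2, and the genotypes overlapped. Loading ratios of the 2 genotypes did not overlap, with KI higher, for 37 of the 232 (15.9%), against 547 of 11822 genes (4.63%). KI was lower without overlap for 1 of them (0.43%), against 615 of 11822 (5.2%). The 5 genes of at most 150 bases gave medians of -1.22, -1.74 and -0.89 in wt and -0.72, -0.74 and -0.54 in KI, with no overlap, but are few. Without wt lysate 2 the median difference of the 232 was 0.18 and 37 were higher at an unadjusted p under 0.05. Without KI lysate 3 these values were 0.33 and 47, and without wt lysate 3 they were 0.70 and 132.

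Across the same 11500 genes the relation of loading to coding length differed between lysates of 1 genotype. In each lysate the highest median loading was that of a bin between 301 and 900 bases. Spearman's rho between loading and coding length was -0.554, -0.416 and -0.584 in wt lysates 1, 2 and 3, and -0.549, -0.556 and -0.664 in KI lysates 1, 2 and 3. The weakest value was again that of wt lysate 2 and the strongest that of KI lysate 3. These are values over genes of 1 library pair, and genes are not replicates. After a trend on transcript length was removed from each library, 0 genes were called, with 671 at an unadjusted p under 0.05 in edgeR. After removal of a trend on coding length, an alternative chosen after seeing the data, 0 were called and 714 had an unadjusted p under 0.05, and the median of the 232 genes was 0.15.

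**Figure D3:**
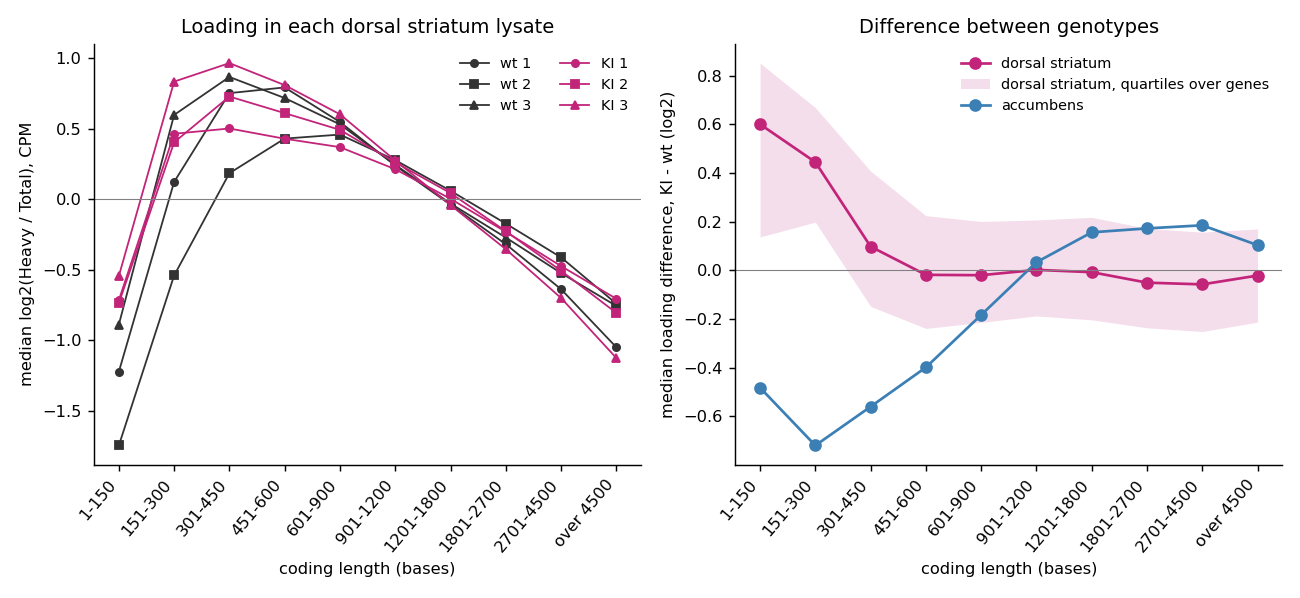
Left, median loading (log2 of Heavy over Total CPM) by coding length in bases, a line for each wt (black) and KI (magenta) lysate of the DS. Right, median loading difference (KI minus wt, log2) in the DS, with quartiles over genes shaded, and in the Acb; the DS medians are 0.60 (5 genes) and 0.45 (227 genes) in the first 2 bins and near 0 from 451 bases on, while the Acb medians there are -0.48 and -0.72.

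Metallothioneins were the class with the largest median difference. All 3 members tested were higher at an unadjusted p under 0.05, beside 2.67% of all genes, with a median of 0.98, and *Mt1* passed the adjusted threshold. Their coding sequences have 183 to 204 bases. Of the 232 genes with at most 300 bases, which include them, 40.5% were higher at that p, with a median of 0.45. *Mt2* loading was -0.43, -0.89 and 0.28 in wt and 0.54, 0.46 and 0.91 in KI, a difference of 0.98 (SE 0.25, edgeR adjusted p = 0.0887). *Mt3*, the brain-enriched member, was 0.68 higher (SE 0.22, edgeR adjusted p = 0.469), and its genotypes overlapped. In the heavy fractions alone *Mt2* rose by 0.98 (edgeR adjusted p = 0.0382). The median over the class ran from 0.71 without wt lysate 2 to 1.30 without wt lysate 3.

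Medians of the respiratory chain complexes are given side by side, with no test between them. Of all genes tested, 2.67% were higher and 1.7% lower at an unadjusted p under 0.05. Of the 232 genes with coding sequences of at most 300 bases, 40.5% were higher. The median coding length of complex IV, cytochrome c oxidase, was 258 bases. It had a median difference of 0.38 over 17 genes, of which 6 (35.3%) were higher at an unadjusted p under 0.05. These were *Cox8a*, *Cox6a1* (0.77), *Cox7a2* (0.62), *Cox5b* (0.60), *Cox7c* (0.58) and *Cox6c* (0.53), of which the last 3 are named after their values were seen. *Cox7a1*, the muscle form, was lower by the fit (-4.34, SE 1.77) on 29.3 reads on average and is uncertain. Complex III had a median of 0.22 over 9 genes, with *Uqcr10* (0.72), *Uqcr11* (0.57), *Uqcrh* (0.51) and, seen afterwards, *Uqcrq* (0.53) higher. In complex I 9 of 36 were higher (25%) and 0 lower at that p, with a median of 0.09. *Ndufa1* was 0.70, *Ndufa3* 0.65 and *Ndufa2* 0.64. Complex V, the ATP synthase, had a median of -0.07 over 19 genes, yet its smallest subunits *Atp5e* (0.87, edgeR adjusted p = 0.098), *Usmg5* (0.85, edgeR adjusted p = 0.0887) and *2010107E04Rik* (0.62) were among the 5 higher. In that complex 1 gene was lower at that p. Complex II had a median of -0.16 over 4 genes, all below 0, with *Sdhc* at -0.21, *Sdhd* at -0.18 and *Sdhb* at -0.15.

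The median loading of complex IV was 1.02, -0.11 and 1.14 in wt and 0.78, 1.04 and 1.16 in KI. Only wt lysate 2 stood apart, and without it the class median was 0.10. For complex I the class medians were 1.11, 0.37 and 1.11 in wt against 1.003, 1.04 and 1.03 in KI, again with wt lysate 2 alone below the rest, and without it the class median was -0.04. Without wt lysate 2 the median of complex III was 0.10. *Cox6a1* showed the same pattern, at 0.31, -1.15 and 1.08 in wt and 0.56, 0.98 and 1.04 in KI. Over all 8 mitochondrial lists 36 of 187 genes were higher (19.3%) and 4 lower (2.14%) at an unadjusted p under 0.05, beside 2.67% and 1.7% of all genes, and the median was 0.07.

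Import components had a median of 0.25 over 25 genes, which was -0.01 without wt lysate 2 and 0.39 without wt lysate 3. Their median loading was 0.23, -0.11 and 0.70 in wt and 0.35, 0.48 and 0.49 in KI, with overlap. *Tomm7* (0.78), *Romo1* (0.82), *Tomm6* (0.60) and *Timm8b* (0.62) were higher at an unadjusted p under 0.05 and *Timm44* (-0.59), seen afterwards, was lower. The shares were 16% higher and 4% lower, beside 2.67% and 1.7% of all genes. The mitochondrial ribosome gave a median of 0.04 over 48 large subunit genes. Of these, 7 were higher (14.6%), with *Mrpl57* (0.81), *Mrpl33* (0.75) and *Mrpl42* (0.61) the lowest in p. The median was -0.02 over 30 small subunit genes, with *Mrps21* at 0.49 and *Mrps33* at -0.51. Citrate cycle enzymes (median 0.03 over 16) and glycolytic enzymes (-0.09 over 16), with longer coding sequences, held 0 genes at an unadjusted p under 0.05 in edgeR in either direction and 0 at an adjusted one.

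The Sm and LSm proteins of the spliceosome had a median of 0.26 over 23 genes, which was 0.06 without wt lysate 2 and 0.47 without KI lysate 2. *Snrpg* loading was -0.46, -1.01 and -0.01 in wt and 0.42, 0.21 and 1.09 in KI, a difference of 1.06 (SE 0.29, edgeR adjusted p = 0.164) without overlap. *Lsm7* was 0.73 and *Snrpn* 2.01, the latter on 71 reads on average. At an unadjusted p under 0.05, 5 were higher (21.7%, beside 2.67% of all genes) and 3 lower (13.04%, beside 1.7%), the latter being *Snrpd3* (-0.51), *Snrpa1* (-0.62) and *Lsm11* (-0.74), named after their values were seen. RNA polymerase II subunits had a median of 0.26 over 13 genes (0.02 without KI lysate 3, 0.09 without wt lysate 1 or 2, and 0.43 without wt lysate 3), with *Polr2m* at 0.48 the 1 gene at that p. *Nop10*, a small protein of the box H/ACA particles that modify ribosomal RNA, was 0.81 higher (SE 0.24, edgeR adjusted p = 0.274) and did not overlap. The 57 ribosome biogenesis genes as a class had a median of -0.14, with *Tsr1* at -0.69 and *Rrp7a* at -0.49.

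Heat shock proteins lay on the other side. Their median difference was -0.30 over 16 genes, 14 of which were below 0, and 5 were lower at an unadjusted p under 0.05 (31.2%, against 1.7% of all genes) and 0 higher. None passed the adjusted threshold. *Hspa5*, the chaperone BiP of the endoplasmic reticulum, had loading of 0.03, -0.04 and -0.19 in wt and -0.71, -0.47 and -0.58 in KI, a difference of -0.52 (SE 0.22, edgeR adjusted p = 0.948). Its lysate level rose by 0.54 in KI (edgeR adjusted p = 0.0451), and its heavy fraction differed by 0.06. *Hsph1* (-0.48) and *Hspa2* (-0.73), like *Hspa8* (-0.37) and *Hsp90aa1* (-0.37), which were named after their values were seen, are cytosolic chaperones. Loading did not overlap, with KI lower, for 8 of the 13 heat shock genes that reached a mean of 50 reads, against 5.2% of all such genes. Class medians were -0.04, -0.26 and -0.50 in wt and -0.49, -0.78 and -0.59 in KI, so wt lysate 3 just overlapped KI lysate 1. The chaperonin CCT, which folds actin and tubulin, had a median of -0.16 over 8 genes, with *Cct8* at -0.36, and prefoldin one of 0.06 over 5.

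Most neuronal classes showed small medians. Small calmodulin-binding and BEX proteins had the lowest of them, -0.21 over 16 genes, 13 of which were below 0. At an unadjusted p under 0.05, *Pcp4* and its paralog *Pcp4l1* (0.84, SE 0.20, edgeR adjusted p = 0.0637) were the 2 higher (12.5%, beside 2.67% of all genes). *Nap1l5* (-0.57), *Bex2* (-0.40) and, seen afterwards, *Calm2* (-0.47) were among the 4 lower at that p (25%, beside 1.7% of all genes). In wt the median loading of that class was 1.09, 1.02 and 0.99, and in KI 0.80, 0.83 and 0.98, without overlap. *Gng7*, the small G protein subunit that couples dopamine D1 and adenosine receptors to adenylyl cyclase in the striatum, had loading of -0.40, -0.82 and -0.44 in wt and -0.25, 0.21 and 0.41 in KI, a difference of 0.68 (SE 0.19, edgeR adjusted p = 0.257). It was the 1 gene of 25 in medium spiny neuron signalling at an unadjusted p under 0.05, and the class median was 0.02. Synaptic vesicle genes had a median of -0.08 over 33, with *Synj1* (-0.55) and *Sncb* (-0.50) lower. Receptor subunits for glutamate and GABA had one of -0.06 over 40, with *Gabrd* at 0.63 and *Gabbr2* at -0.51. Ion channels had one of -0.06 over 123, with *Cacna1e* at 0.48 and *Scn9a* at 1.69. Motor proteins had one of -0.06 over 67, scaffolds of the postsynaptic density one of -0.02 over 23, and immediate early genes one of 0.03 over 21, with *Jund* at 0.71. *Jund* also had a lower lysate level, which fell by 0.76 (edgeR adjusted p = 0.0451).

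Among regulators of translation, the mTOR pathway and rpS6 kinases had a median of -0.06 over 26 genes. *Rheb*, the GTPase that activates mTORC1, was the 1 gene at an unadjusted p under 0.05 (-0.57, SE 0.22, edgeR adjusted p = 0.85). Its genotypes overlapped. Initiation factors had a median of -0.03 over 44 genes, with *Eif3a*, the largest subunit of eIF3, at -0.61. The shares lower at that p were 3.85% and 2.27% in these 2 classes, beside 1.7% of all genes. Aminoacyl-tRNA synthetases had one of -0.06 over 21, with *Fars2* at 0.88, and the proteasome one of -0.11 over 39, with 0 genes at an unadjusted p under 0.05 in edgeR and 0 at an adjusted one. Among mRNAs with upstream open reading frames, translated in the stress response, *Atf4* was 0.55 and *Ppp1r15a* 0.84, with a median of 0.09 over 13. Both overlapped between genotypes, and *Ppp1r15a* loading in wt lysate 1 (1.31) lay above that of every KI lysate. Of the polyamine genes *Sat1*, which acetylates spermidine and spermine, was 0.90 higher without overlap (SE 0.28, edgeR adjusted p = 0.407), *Srm* was -0.52, and the antizyme gene *Oaz1*, on 72.8 reads, was 2.07. The vacuolar ATPase had a median of 0.00 over 20, with its small subunits *Atp6v0e* (1.14) and *Atp6v1f* (0.62) higher. *Atp6v1f* did not overlap. *Atp6v0e* loading in wt lysate 3 (0.67) lay above that of every KI lysate, and its wt heavy libraries 1 and 2 held 61 and 72 reads. Thymosins, profilins and cofilin had one of -0.09 over 7, with *Pfn1* at -0.41, *Cfl1* at -0.26 and *Pfn2* at 0.02 beside the thymosins.

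**Figure D4:**
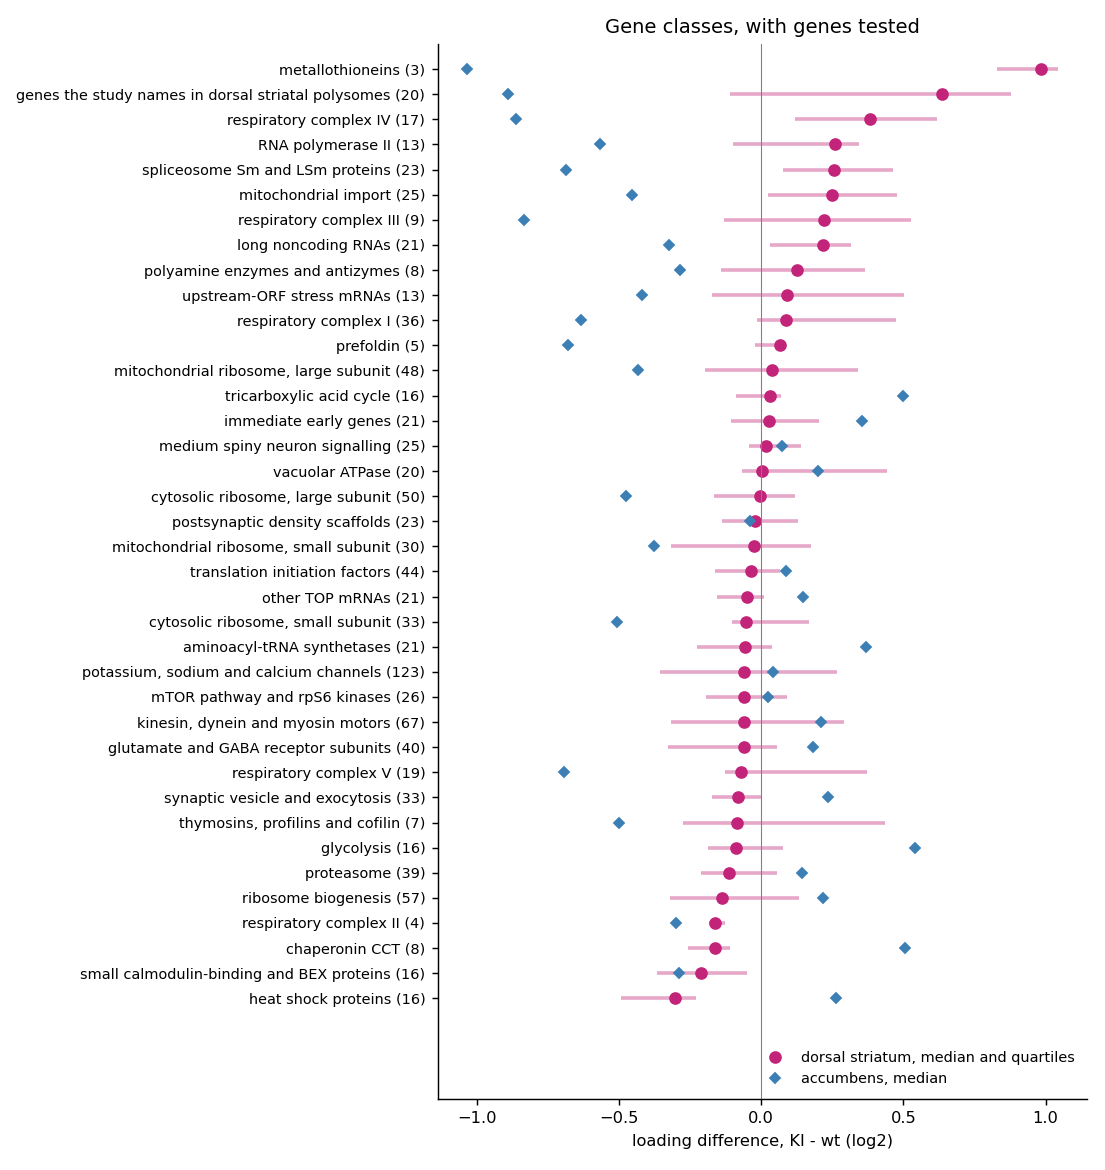
Median loading difference (KI minus wt, log2) of each gene class in the DS (magenta, bar from the lower to the upper quartile over genes) and in the Acb (blue), with the number of genes tested in the DS in parentheses. Metallothioneins (0.98) and complex IV (0.38) lie highest among the functional classes and heat shock proteins (-0.30) lowest; the class of 20 genes named by the study was chosen on these samples.

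The study names 20 genes in DS heavy polysomes, chosen on these same samples, so that their count is not independent evidence of a direction. They come from the heavy fractions, without the ratio to the lysate. For that ratio in the DS the paper used another tool, Xtail. It reported genes with decreased and with increased translational efficiency, the former slightly more numerous, whereas the 6 genes called here were all higher. Of the 20, 14 were higher and 4 lower in loading at an unadjusted p under 0.05, and *Pcp4*, *Mt1* and *Tmsb10* passed the adjusted threshold, all 3 higher. The 4 lower were *Myl4* (-0.73), *Nap1l5*, *Sncb* and *Bex2*. *Cwc22*, which encodes a splicing factor, had the largest fold of the 20 in both fractions. It rose by 1.502 in the lysates (edgeR adjusted p = 5.48e-06) and by 1.55 in the heavy fractions (edgeR adjusted p = 0.000219), and its loading difference was -0.07 (SE 0.27, edgeR adjusted p = 1). *Pebp1* (-0.22) was the other gene of the 20 without an unadjusted p under 0.05. *Selt* was 0.57 and *Frrs1l* 0.51.

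**Figure D5:**
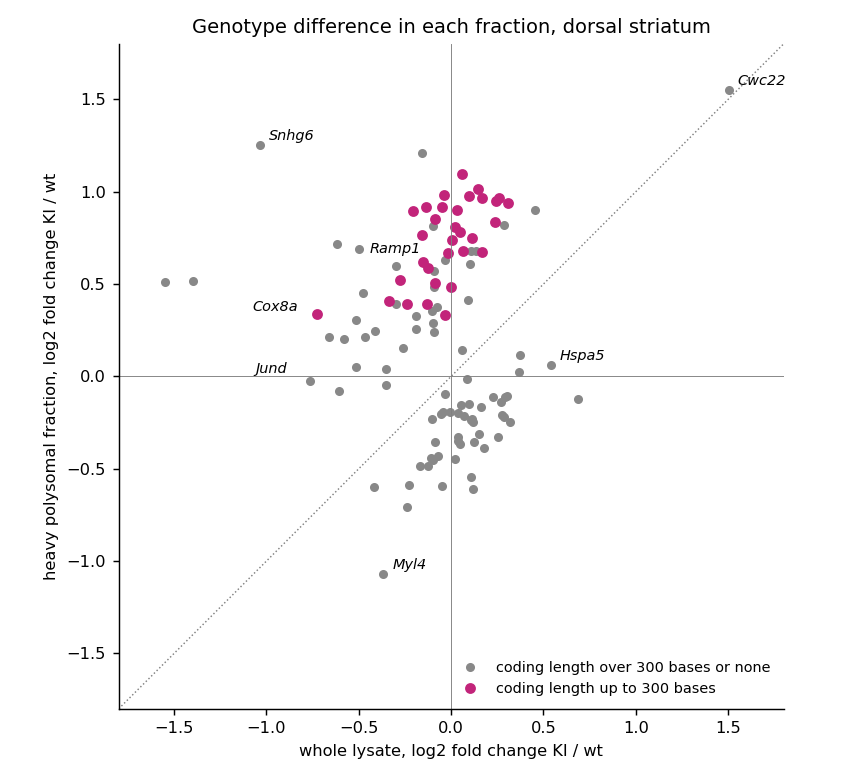
Log2 fold change of KI over wt in the DS heavy fractions against that in the lysates, for 116 genes that passed the adjusted threshold, were the lowest in p of their class or are named by the study, all with at least 50 reads on average. The dotted diagonal marks equal change in both fractions, near which Cwc22 lies (1.502 and 1.55), while the 32 genes with frames up to 300 bases (magenta) lie above it; the choice by low p places genes away from the diagonal.

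The largest estimated differences belonged to weakly counted genes. Among genes that reached a mean of 50 reads and did not overlap, the 8 highest were *Zfp783* (3.35), *Galns* (2.78), *Snhg6* (2.76), *Mfsd9* (2.67), *Ccdc176* (2.54), *Tspan4* (2.45), *Cyp2u1* (2.33) and *Mkln1os* (2.28). The 8 lowest were *Slc9a7* (-2.36), *Cast* (-2.08), *Ttc28* (-2.03), *Palmd* (-1.90), *Ppcs* (-1.86), *Tnfaip8* (-1.78), *Lrrc2* (-1.77) and *Fuk* (-1.76). Their mean counts ran from 50.3 to 119.5 reads per library, and none passed the adjusted threshold, with *Snhg6* (edgeR adjusted p = 0.085) the lowest. In the lysates alone the 8 highest were all lower in KI by the fit and the 8 lowest all higher, none of them called. *Zfp783* was -2.34 in the lysates and 0.93 in the heavy fractions, and *Palmd* 1.30 and -0.59. For *Mkln1os* (-0.29 and 1.91) and *Ttc28* (0.18 and -1.81) most of the difference lay in the heavy fractions. *Slc9a7*, a sodium and proton exchanger of the trans-Golgi network, had loading of -0.45, -0.90 and -0.02 in wt and -1.72, -3.93 and -2.54 in KI. Its lysate level was 3.1 ± 0.3 CPM in wt and 8.2 ± 2.2 in KI (n = 3). *Cast* is the calpain inhibitor calpastatin, and *Palmd* is a cytosolic protein related to paralemmin.

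The knockin difference in loading was not the same in the Acb, where 106 of 16687 genes were called (0.635%), 22 higher and 84 lower. The test of the difference between regions called 187 of 17365 genes (1.08%), 180 of them higher in the DS than in the Acb. The median coding length of the called genes was 294 bases, against 1401 over all genes in the length comparison, and 90 of the 180 had coding sequences of at most 300 bases. For *Pcp4* the difference was 0.93 in the DS and -1.05 (SE 0.22) in the Acb, which differ by 2.02 (SE 0.27, edgeR adjusted p = 2.91e-09). *Tmsb4x* (2.01, SE 0.28, edgeR adjusted p = 2.91e-09), *Mt1* (2.17, SE 0.32, edgeR adjusted p = 2.83e-08), *Atp5e* (2.21, SE 0.32, edgeR adjusted p = 2.69e-08) and *Usmg5* (2.01, SE 0.31, edgeR adjusted p = 1.76e-07) followed. Among the 180 genes the median difference was 0.57 in the DS and -0.88 in the Acb. These genes were chosen by the regional difference, which favours high DS and low Acb values, so the medians are no separate evidence. Of the 232 shortest frames, 153 were lower in the Acb at an unadjusted p under 0.05, with a median of -0.72. The share over all 16687 genes tested there was 6.07%, a set that, unlike the 232, includes weakly counted genes. Without the pairing of lysates the test of the difference between regions called 0 genes, with 1623 at an unadjusted p under 0.05 and a lowest adjusted p of 0.0792, and with the coding length trend removed it called 12.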

How the data were processed

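Counts are raw reads per gene, deposited by the authors without normalization for 24079 genes. Per the labels and methods, stranded poly(A) libraries were aligned with TopHat2 2.0.13 and Bowtie2 2.2.3 to mm10 and counted with HTSeq 0.6.1p1. Reads were not realigned here, and 0 columns of the table were left unused. The sources differ on how many mice were pooled per replicate, and each genotype has 3 such pools.

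Genes below a sum of 15 reads in the compared libraries were removed. The interaction was tested with edgeR 4.0.16 in R 4.3.3 (TMM, quasi-likelihood F test, legacy settings, Benjamini-Hochberg adjustment over all genes tested), with 6 lysates as blocks, fraction, and KI by fraction. The design leaves 4 residual degrees of freedom, and edgeR shrank the quasi-dispersions wholly to the trend over genes. For the DS interaction a gene's own spread between lysates therefore does not enter its standard error or p-value, and can be wider than the standard error shows. The standard error is the size of the log2 difference over the square root of F. The pairing comes from the extract protocol, in which the Total aliquot and the gradient load are taken from 1 lysate. Whether each Heavy library held a single lysate is not settled by the sources. Which Heavy library goes with which Total library was taken from their shared number. Residual correlations of these pairs ran from -0.0582 to 0.0393 over 11822 genes, and those with the other lysates of the genotype from -0.0567 to 0.0876, so the counts themselves do not show the pairing. Fractions were also compared alone, and the region difference was tested over all 24 libraries. Loading per lysate is the log2 ratio of TMM-scaled CPM with a prior count of 2.

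Transcript and coding lengths are those of the principal GENCODE M21 transcript (21208 and 20427 genes matched), and positions are from RefSeq for GRCm38.p6 (23977 matched). Genes named are every gene called, the 8 largest non-overlapping differences in each direction, *Rps6*, up to 3 genes of lowest p in each class, the study's 20 genes, and up to 5 genes that differ between regions. The members, classes and lists were chosen with earlier results of these data known. Classes are described by counts and medians, with no test. Values of some single genes are not reported here. Alternatives were no pairing, pairing across genotypes, DESeq2 1.42.0 (size factors or Wald test), limma-voom (limma 3.58.1), other filters, edgeR 4 settings, *Bc1* left out, length trends removed, all 24 libraries, and each lysate left out. Counts were also simulated for the paired DS comparison (16246 genes). On the log2 scale, 38 of 100 genes changed by 1.0 and 68 of 100 changed by 1.5 were called, with 10 other calls. Each simulated lysate shared a shift per gene between its Heavy and Total library, which the residual correlations do not show. The simulation held no shift of single lysates with coding length, so its numbers of calls may not hold for the real libraries. Figures were drawn with matplotlib 3.10.9 in Python 3.11.15.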

Additional observations from a re-analysis of the deposited data

Results flagged for a closer look

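A difference between the 2 regions in the knockin effect on loading was found by the three-way test (genotype by fraction by region, edgeR, 12 lysates paired) for 187 genes. The 5 of lowest p, with the DS value minus the Acb value on the log2 scale, were *Pcp4* (2.02), *Tmsb4x* (2.01), *Atp5e* (2.21), *Mt1* (2.17) and *Usmg5* (2.01). In each of them loading was higher in KI in the DS (0.93, 0.85, 0.87, 1.10 and 0.85) and lower in KI in the Acb (-1.05, -1.12, -1.30, -1.03 and -1.12). The choice by lowest p in that test favours such opposite values. All 5 have coding sequences under 300 bases. With 3 lysates per genotype and region, groups were too small for the Dixon test of single far samples.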

How the results depend on the processing

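The DS calls depended on the pairing, and also on the tool, the filter, the length trends and single lysates. Without the replicate block 0 of the DS, 0 of the Acb and 0 of the region-difference genes were called (811, 1992 and 1623 at an unadjusted p under 0.05), against 6, 106 and 187 with lysates paired. A replicate block across genotypes gave 0 in the DS (736). DESeq2 size factors gave 2. filterByExpr (673), DESeq2's Wald test (777), limma-voom (746), edgeR 4 settings (725), the transcript length trend removed (671) and the coding length trend removed (714) each gave 0, with the count at an unadjusted p under 0.05 in parentheses. Leaving out *Bc1* or the filter kept 6, and all 24 libraries gave 4. Leaving out 1 lysate gave 0 to 56 calls. Genes at an unadjusted p under 0.05 and higher in KI numbered 441, but 292 with the coding length trend removed and 666 without wt replicate 3. The region difference fell to 79 genes with the transcript length trend removed and to 12 with the coding length trend removed.

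Of the genes with coding sequences up to 300 bases, 94 were higher at an unadjusted p under 0.05, 54 with DESeq2's Wald test, 50 and 23 with the transcript and coding length trends removed, and 37 to 132 with 1 lysate left out. Their median stayed above 0 throughout, from 0.15 to 0.70. Class medians moved by more than 1 SD over lysates for initiation factors (-0.11 and -0.12 with the transcript and coding length trends removed), the proteasome (-0.21 with the former), RNA polymerase II (-0.11 with the latter) and small calmodulin-binding and BEX proteins (-0.33 and -0.34). With 1 lysate left out, CCT ran from -0.27 to -0.0498, polyamine genes from -0.12 to 0.24 and postsynaptic scaffolds from -0.10 to 0.0297. *Rps6* was -0.0512 with the transcript length trend removed. The cause of these shifts was not tested. The coding length trend, and every alternative for the genes with coding sequences up to 300 bases, were chosen after seeing the data.

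With 3 pools per genotype, the simulation found 38 of 100 genes changed by 1.0 on the log2 scale, so smaller changes could have been missed. It also called 10 genes that had not been changed, so some of the 6 calls could be false. The simulated lysates lacked the shifts with coding length seen between the real ones, so both numbers may differ in the real libraries.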

Other observations

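The long noncoding RNAs had negative median loading in every DS lysate, at -1.05, -1.16 and -0.59 in wt and -0.84, -0.97 and -0.93 in KI over 21 genes. Their median loading difference was 0.22. *Malat1*, a nuclear RNA, had loading of -2.18, -1.41 and -1.93 in wt and -1.67, -0.61 and -1.78 in KI, a difference of 0.48 (SE 0.19, edgeR adjusted p = 0.909). The snoRNA host *Snhg6* had loading of -5.54, -3.89 and -2.23 in wt and -0.70, -0.88 and -1.20 in KI, a difference of 2.76 (SE 0.67, edgeR adjusted p = 0.085), on as few as 1 read in a wt heavy library. *Snhg5* differed by 0.97 (SE 0.52). *Bc1*, named here after its values were seen, had loading of -2.49, -2.90 and -3.66 in wt and -3.11, -3.80 and -2.10 in KI, a difference of 0.01 (SE 0.13) in which the genotypes overlapped.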
